A study of Caenorhabditis elegans with 22 samples.

Results

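The pals genes of Caenorhabditis elegans are a large family of proteins that share the ALS2CR12 signature. The 5 members described here, pals-16, pals-21, pals-22, pals-25 and pals-27, were chosen by name from a family of 38 named pals genes in the small RNA tables, which hold 46780 genes in all. Their small RNA values in adr-1;adr-2 and eri-6 mutants led to the choice, so those values are given as a description with no test. All 5 are protein-coding genes on chromosome III of build WBcel235.

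Several family members act as switches of the intracellular pathogen response, a set of genes that worms turn on during infection by microsporidia or the Orsay virus. PALS-22 represses that response and PALS-25 activates it, and pals-22 was also found through its effect on transgene silencing and RNA interference (RNAi). PALS-17 is a further repressor, while PALS-16 and PALS-20 act as activators. Secondary small interfering RNAs (siRNAs) are short RNAs that worms copy from a target transcript, and they are loaded into Argonaute proteins that silence that target. The siRNA pool is limited, and several endogenous pathways compete for the same Argonautes and polymerases.

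The study measured RNA of whole young adults that carried embryos, 70 h after L1 arrest and grown at 20 °C. Wild-type small RNA came from strain GR1831, which carries the transgene mgIs30 (replicate 1), and from N2 (replicate 2). The adr-1;adr-2 mutants lack the ADAR enzymes, of which ADR-2 edits adenosine to inosine in double-stranded RNA. Their small RNA came from BB4, labelled adr-1(gv6); adr-2(gv42) (replicate 1), and from BB21, labelled adr-1(tm668); adr-2(ok735) (replicate 2). The eri-6 mutant GR1814, eri-6(mg379), lacks the ERI-6/7 helicase that the ERGO-1 siRNA pathway needs. The triple mutant GR1744, written adr-1 eri-6;adr-2, joins the mg379 allele of eri-6 with adr-1(gv6) and adr-2(gv42). Total RNA came from N2, GR1814, GR1744 and adr-1;adr-2, the last labelled BB4 but with the tm668 and ok735 alleles. Small RNA and total RNA have 2 libraries per genotype, and total RNA was deposited as 1 value per genotype with bounds. Polyadenylated mRNA has 1 library each of N2 and GR1744 on control (L4440), drh-1 and nrde-3 RNAi food. In whole animals, fewer cells of a type and less RNA per cell cannot be told apart, and the labels do not show replicates to be separate cultures.

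Small RNA depth was 10904105 to 32303754 reads per library. Replicate 2 held a larger share of reads from protein-coding genes in every genotype, 47.5% to 52.8% against 30.2% to 30.5% in replicate 1, so levels are given for each library. The targeted adr-1 gene had 67.9 and 85.3 normalised small RNA reads in adr-1;adr-2 against 328 and 621 in wild type. The eri-6 transcript had 5.35 FPKM (fragments scaled by transcript length and library size) in eri-6 total RNA and 17.8 in wild type. The drh-1 mRNA went against its label: it was 65.4 FPKM in the triple mutant library labelled drh-1 RNAi and 19 on control, and in wild type 32.3 and 14.3. The nrde-3 mRNA was 8.08 FPKM on nrde-3 RNAi and 15.4 on control in the triple mutant, and 5.26 and 5.76 in wild type. It was also low in the triple mutant library labelled drh-1 RNAi, at 5.47 FPKM against 14.2 on control in that table, so the lower level was not particular to the nrde-3 food.

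pals-22, the repressor, carried the most small RNA of the family. The gene (C29F9.1, III:132418-134401) had 64.4 and 253 RPM (reads scaled to a library total of 1000000) in wild-type replicates 1 and 2. The adr-1;adr-2 libraries had 85.4 and 213 RPM, within the wild-type range. The eri-6 libraries had 226 and 786 RPM. Replicate 2 was higher than replicate 1 in all 3 genotypes, and eri-6 was higher than wild type within each replicate number. Per kilobase of gene, wild-type pals-22 stood above 98.2% and 98.8% of 19170 protein-coding genes, so its coverage was high in wild type too.

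In the authors' normalisation, eri-6 had 7770 ± 3010 normalised reads at pals-22 and wild type 2695 ± 1838 (SD, n = 2 each). The fitted log2 fold was 1.66 ± 0.87 (SE), 0.90 without wild-type replicate 1 and 2.42 without wild-type replicate 2. The adr-1;adr-2 mean was 2839 ± 1257, against 2963 ± 2106 for wild type as scaled there, a log2 fold of 0.07 ± 0.99 that took either sign with 1 wild-type library left out, −0.72 and 0.87. The eri-6 and wild-type libraries did not overlap after that scaling, while adr-1;adr-2 and wild type did.

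pals-25, the activator, begins 92 bp after pals-22 ends (T17A3.2, III:134494-137973). It had 13.7 and 54.4 RPM in wild type, 22.5 and 175 in adr-1;adr-2, and 83.8 and 334 in eri-6. Every eri-6 library was above every wild-type library, whereas the adr-1;adr-2 replicates straddled wild-type replicate 2. The log2 fold was 2.55 ± 0.86 (SE) in eri-6, from 3146 ± 1496 normalised reads against 578 ± 397, and 1.79 to 3.31 with 1 library left out. In adr-1;adr-2 it was 1.19 ± 1.09, from 1794 ± 1808 against 636 ± 455 (SD, n = 2 each). That second value rests on the BB21 library: without it the log2 fold was −0.09, and without the BB4 library it was 2.48.

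**Figure D1:**
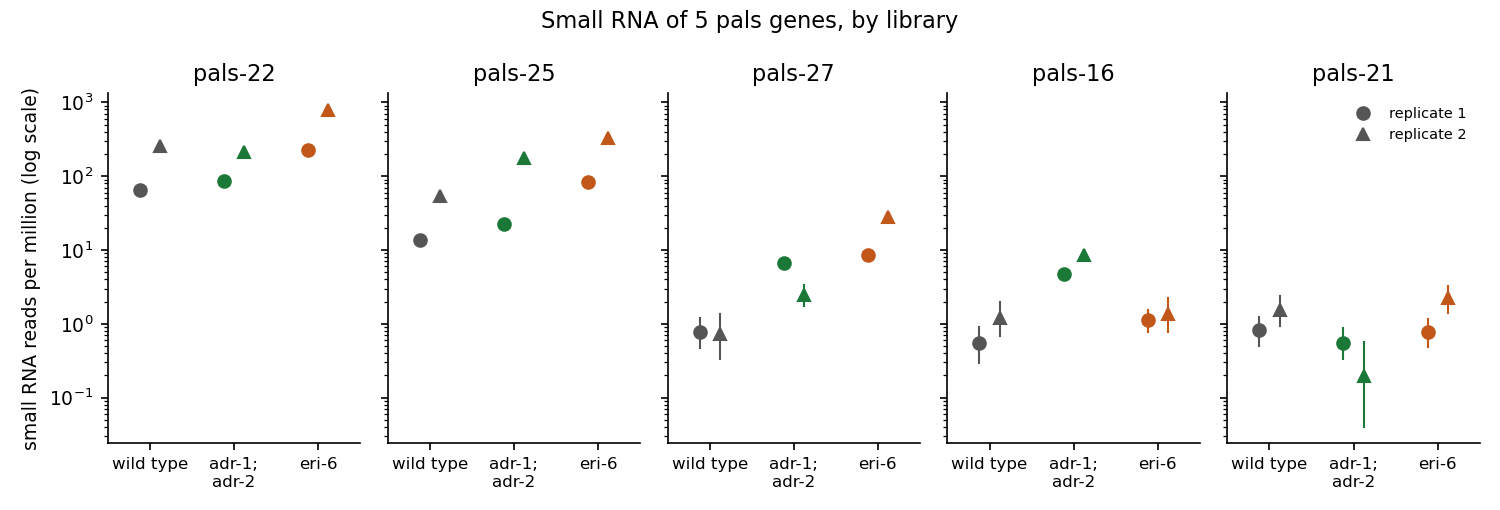
Small RNA RPM (log scale) of the 5 pals genes in each of 6 libraries, by genotype. Circles are replicate 1 and triangles replicate 2, and lines are 95% exact binomial intervals of the counts. pals-22, pals-25 and pals-27 are highest in eri-6, pals-16 in adr-1;adr-2.

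The ratio of pals-25 to pals-22 reads within a library needs no scaling between libraries. It was 0.213 and 0.215 in the wild-type libraries. In eri-6 it was 0.370 and 0.425. In adr-1;adr-2 it was 0.264 in BB4 and 0.824 in BB21. All 4 mutant libraries lay above both wild-type libraries, and the adr-1;adr-2 libraries differed from each other by more than wild type differed from eri-6. Together the pair supplied 50.5% and 67.1% of all pals small RNA in the wild-type libraries, and 73.3% and 83.1% in those of eri-6.

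**Figure D2:**
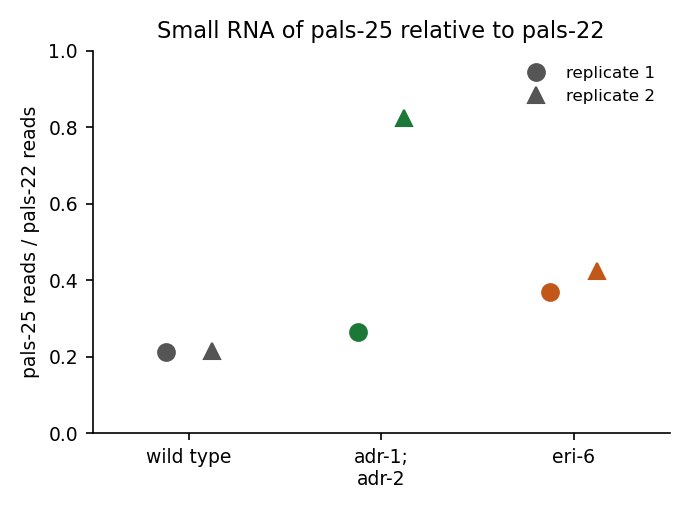
Reads of pals-25 divided by reads of pals-22 in each small RNA library, by genotype. Circles are replicate 1 and triangles replicate 2; wild type sits at 0.213 and 0.215, and the BB21 library of adr-1;adr-2 at 0.824.

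The genes that flank the pair carried few small RNA reads. C29F9.2, 666 bp to the left of pals-22, had 2 reads in each wild-type library, and 7 and 3 in the eri-6 libraries, too few to judge a relative change. The F-box gene fbxb-81, 2098 bp to the right of pals-25, had 1.25 and 1.29 RPM in wild type, 1.02 and 0.454 in adr-1;adr-2 and 0.741 and 2.84 in eri-6. Neither neighbour exceeded 3 RPM in any library, against at least 13.7 for each of pals-22 and pals-25.

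pals-27 (B0284.2, III:4381643-4384166) had little small RNA in wild type and more in every mutant library. Wild type had 0.779 and 0.723 RPM, from 20 and 9 reads. The adr-1;adr-2 libraries had 6.69 and 2.46, and the eri-6 libraries 8.46 and 27.9. No mutant library overlapped wild type. In eri-6 the gene had 281 ± 99.3 normalised reads against 14.1 ± 3.85 (SD, n = 2 each), and the fitted log2 fold was 4.20 ± 0.82 (SE). In adr-1;adr-2 the values were 98.0 ± 77.4 against 15.3 ± 3.6, a log2 fold of 2.36 ± 1.11. The BB21 library held 38 reads, or 2.46 RPM, and BB4 held 216, or 6.69 RPM. Strain and replicate number cannot be told apart here. The log2 fold was 1.46 without BB4 and 3.26 without BB21.

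pals-27 was also the one member in the authors' deposited selection of 381 genes for the triple mutant, of which 280 were higher there. It had 719 and 707 normalised reads in the triple mutant against 20.9 and 15.0 in wild type, which correspond to 1360 and 630 reads against 20 and 9. The log2 fold of the means plus 1 was 5.23, which ranked 10 among the selected genes. These genes were selected on the same libraries, and small RNA of the other 4 members was not analysed here in the triple mutant.

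The neighbours of pals-27 differed from it and from each other. B0284.3, 1825 bp to the left, was among the more heavily covered genes already in wild type, with 157 and 806 RPM, and had 193 and 433 in adr-1;adr-2 and 311 and 1427 in eri-6. pals-28, 620 bp to the right, had 0.662 and 3.37 RPM in wild type, 1.05 and 0.389 in adr-1;adr-2 and 0.472 and 2.75 in eri-6. Its log2 fold was −1.16 ± 1.34 in adr-1;adr-2 and −0.44 ± 1.17 in eri-6.

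pals-16, an activator of the response, was the member whose small RNA was high in adr-1;adr-2 and not in eri-6. The gene (Y82E9BR.4, III:1399970-1401401) had 0.545 and 1.21 RPM in wild type, 4.74 and 8.50 in adr-1;adr-2 and 1.11 and 1.38 in eri-6. The ADAR mutants, with different alleles in each library, were both above both wild-type libraries, and eri-6 lay in or next to the wild-type range. The log2 fold was 2.89 ± 1.01 (SE) in adr-1;adr-2, from 129 ± 28.9 normalised reads against 16.8 ± 6.18, and 0.52 ± 1.11 in eri-6, from 22.5 ± 7.34 against 15.4 ± 5.11 (SD, n = 2 each). Both mutants were compared with the same wild-type libraries. Its neighbours pals-17 and pals-19 had 1 to 5 and 5 to 13 reads in every library.

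pals-21 (Y82E9BR.32, III:1379140-1380635) carried little small RNA anywhere. It had 21 and 19 reads in wild type, 18 and 3 in adr-1;adr-2 and 23 and 24 in eri-6, or 0.195 to 2.2 RPM. Its log2 fold was −1.59 ± 1.53 (SE) in adr-1;adr-2 and 0.16 ± 1.02 in eri-6, and the low adr-1;adr-2 value rests on the 3 reads of BB21. Without BB21 it was −0.77. To its right, Y82E9BR.6 had 49 and 75 reads in wild type, 76 and 206 in adr-1;adr-2 and 24 and 34 in eri-6, and pals-40 to its left had 4 to 16.

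Of the 5 members, pals-16 alone in adr-1;adr-2 and pals-27 alone in eri-6 had every mutant library at least 4-fold above every wild-type library. That rule held for 0.617% of 23975 genes in adr-1;adr-2 and 0.0984% of 23380 in eri-6. The same rule on the low side held for 0.0751% and 0.672% of genes and for no member. These contrasts chose the members, so nothing is read from the counts. Across all genes, limma made 0 calls at a Benjamini-Hochberg adjusted p of 0.05 in either table, with 324 and 237 genes at an unadjusted p under 0.05, edgeR 0 and DESeq2 122 and 138.

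No fold in the rest of the family reached that of pals-22, pals-25 or pals-27 in eri-6, or of pals-16 or pals-27 in adr-1;adr-2. Some exceeded those of other members, as pals-29 at 0.80 in eri-6 against 0.52 for pals-16. The members were chosen by such values, so nothing is read from the difference. Of the other 33 pals genes, 15 passed the minimum mean of 10 normalised reads in the adr-1;adr-2 table and 14 in the eri-6 table, and none met the 4-fold rule. Their median log2 fold was −0.23 in adr-1;adr-2, where all genes had −0.05, and 0.06 in eri-6, where all genes had 0.01. Their folds ran from −1.16 to 1.08 in adr-1;adr-2 and from −0.61 to 0.80 in eri-6. pals-6 had the highest value in adr-1;adr-2, at 15.6 and 40.9 normalised reads against 11.6 and 11.3. pals-29 had the highest in eri-6, at 1320 and 313 normalised reads against 475 and 287, and pals-37 fitted a log2 fold of −1.01 in adr-1;adr-2. pals-20, the activator, had 6 to 17 reads per library. The whole family supplied 155 and 458 RPM in the wild-type libraries and 423 and 1348 in those of eri-6, of which most was pals-22 and pals-25.

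**Figure D3:**
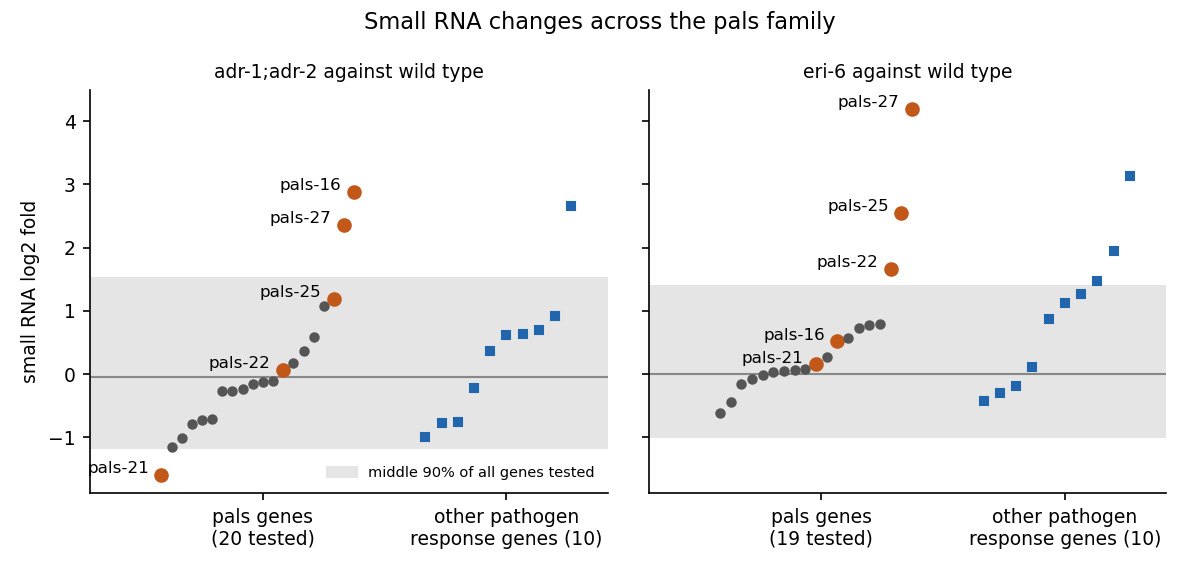
Fitted small RNA log2 folds of the pals genes that passed the minimum, sorted, with the members in orange, and of pathogen response genes outside the family as blue squares. The grey band holds the middle 90% of all genes tested. In eri-6, pals-22, pals-25 and pals-27 lie above the band and no other pals gene does. The members were chosen by such values, so nothing is read from this.

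Genes of the pathogen response outside the family gave a mixed picture. From a list of 21 such genes, 10 passed the minimum in each small RNA table. Their median log2 fold was 1.00 in eri-6 and 0.49 in adr-1;adr-2. The minimum is a mean over mutant and wild-type libraries together. eol-1 in eri-6 and cul-6 in adr-1;adr-2 passed it only through their mutant libraries, so nothing is read from these medians. Y94H6A.2 met the 4-fold rule in eri-6, with 364 and 552 normalised reads against 49.8 and 50.8. The ubiquitin ligase gene cul-6 had 12 and 341 in adr-1;adr-2 against 8.02 and 11.3, so its high value came from BB21, as it did for pals-25. The antiviral gene eol-1 had 16 and 20.8 in eri-6 against 4.22 and 3.81.

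Profiles most like those of the members were sought among 24341 genes, by the root mean square difference of centred log2 RPM over the 6 libraries. For pals-27 they were W08E12.8 and Y94H6A.2, at differences of 0.63 and 0.65. For pals-25 they were Y49F6A.5 at 0.26 and linc-43 at 0.41, and for pals-22 ddn-2 at 0.19 and fbxa-184 at 0.27. For pals-16 they were the nuclear receptor gene nhr-68 at 0.27 and the pyruvate kinase gene pyk-2 at 0.28. nhr-68 had 62 and 55 reads in adr-1;adr-2 against 7 and 9 in wild type, and pyk-2 had 160 and 139 against 21 and 13. For pals-21 they were F19B2.7 at 0.07 and H34I24.1 at 0.11. The libraries share depth and composition, so likeness is a description only.

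Total RNA of pals-16 and pals-27 did not differ between genotypes beyond the deposited bounds, and pals-21, pals-22 and pals-25 were not analysed here in total RNA. pals-27 was low throughout: 0.131 FPKM in wild type (bounds 0 to 0.341), 0.386 in adr-1;adr-2 (0 to 0.811), 0.459 in eri-6 (0 to 0.944) and 0.780 in the triple mutant (0.201 to 1.36). The point values were ordered from wild type to the triple mutant, yet the bounds of all 4 genotypes overlapped and none reached 1 FPKM. pals-16 had 1.82 FPKM in wild type (0.803 to 2.84), 2.39 in adr-1;adr-2 (1.16 to 3.63), 3.65 in eri-6 (2.08 to 5.21) and 2.6 in the triple mutant (1.36 to 3.85). Its highest value was in eri-6, not in adr-1;adr-2 where its small RNA was high. In none of the 5 genotype comparisons was either gene called by the bounds rule, which was met on the high side by 21.1%, 12.6% and 21.6% of genes in adr-1;adr-2, eri-6 and the triple mutant against wild type, and on the low side by 14.8%, 7.39% and 18.4%. Against adr-1;adr-2 the triple mutant had 3.01% of genes higher and 4.36% lower, and against eri-6 9.87% and 13.1%.

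**Figure D4:**
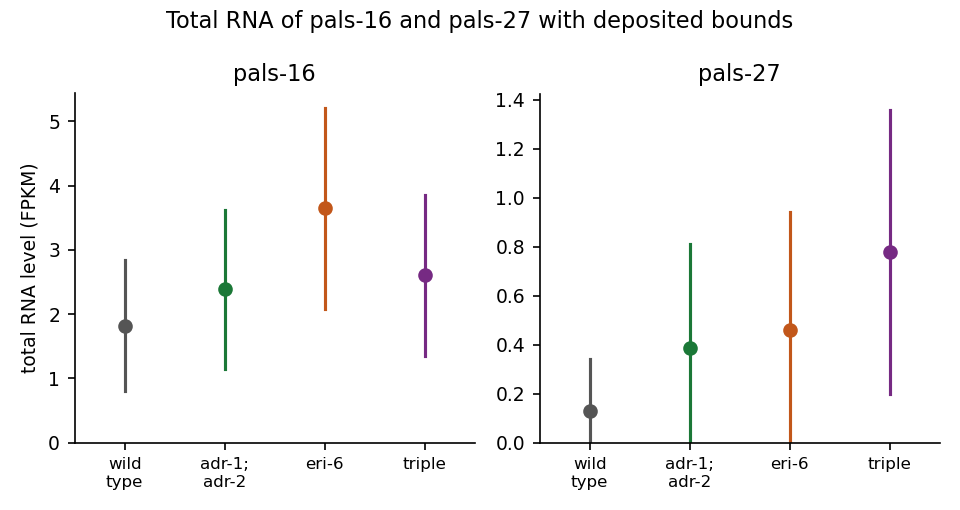
Total RNA of pals-16 and pals-27 in FPKM, 1 deposited value per genotype with the authors' lower and upper bounds as lines. The bounds of all genotypes overlap for both genes.

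Among the rest of the family, 2 genes were called in total RNA in adr-1;adr-2, out of 6 of the 26 listed that reached 1 FPKM. Over all genes, the low side of that rule held for 14.8% there and 18.4% in the triple mutant, so nothing is read from so small a count. The repressor gene pals-17, which lies beside pals-16, was lower, at 4.12 FPKM (2.15 to 6.08) against 9.97 in wild type (6.29 to 13.6). It had 9.30 FPKM in eri-6 (5.93 to 12.7) and 6.13 in the triple mutant (3.66 to 8.59), and these bounds overlapped wild type. pals-34 was lower in adr-1;adr-2, at 3.0 FPKM (0.975 to 5.02) against 11.8 (7.13 to 16.4), and in the triple mutant, at 4.43 (2.01 to 6.85). No other pals gene was called in eri-6 or against either parent in the triple mutant. The median log2 ratio of these genes was −0.75 in adr-1;adr-2, −0.09 in eri-6 and −0.24 in the triple mutant, where all genes had 0.13, 0.12 and 0.08. Beside these values, markers of intestine, 8 genes summed, were 1726 FPKM in wild type, 1219 in adr-1;adr-2, 727 in eri-6 and 574 in the triple mutant. The 5 of 7 oocyte and embryo markers measured were 61.7, 295, 89.0 and 225 in that order. Germline markers, 6 genes, summed to 133, 396, 172 and 298, and 6 sperm markers to 12.7, 31.8, 31.5 and 34.9. Muscle markers summed to 14.5 to 25, neuron markers to 89.3 to 114 and epidermis and cuticle markers to 502 to 680 over the genotypes, and no measured marker of these lists was at 0. The part of tissue composition in these values was not tested.

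The flanks of the pals-22 and pals-25 pair were measured in total RNA. fbxb-81 was lower in every mutant, at 1.44 FPKM in adr-1;adr-2, 3.8 in eri-6 and 0.865 in the triple mutant against 11.6 in wild type, with bounds apart each time. C29F9.2 had 14.2 FPKM in wild type, 4.70 in adr-1;adr-2, 10.6 in eri-6 and 5.38 in the triple mutant, with bounds apart in adr-1;adr-2 and in the triple mutant. B0284.3, beside pals-27, had 9.37, 3.99, 8.56 and 3.91 in the same order, and its wild-type bounds (5.53 to 13.2) overlapped those of every mutant.

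Of the pathogen response genes outside the family, 7 of 20 in the table reached 1 FPKM in the comparison of the triple mutant with wild type, with a median log2 ratio of 0.56. cul-6 was higher, at 4.70 FPKM (3.21 to 6.20) against 1.36 (0.653 to 2.06), and it was also called higher in eri-6, at 4.25 (2.81 to 5.69). skr-3, a partner of such ligases, had 81.9 (61.6 to 102) in the triple mutant against 46.1 (34.1 to 58.1). Over all genes, 21.6% were called higher and 18.4% lower in the triple mutant, so nothing is read from so few calls. The glutathione transferase gene gst-33 was lower, at 0.630 FPKM against 79.7, and it was at 1.36 in adr-1;adr-2 and 1.05 in eri-6.

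The mRNA libraries asked what happens on drh-1 and nrde-3 RNAi food. DRH-1 is a RIG-I-like helicase that senses viral RNA, and the Argonaute NRDE-3 brings siRNAs to nuclear transcripts. With 1 library per condition there is no replicate check, and values are compared within each table only.

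mRNA of pals-22 and pals-25 was lower in the triple mutant, and mRNA of pals-27 was higher. On control food, as scaled in the drh-1 table, pals-22 had 3.21 FPKM in the triple mutant and 6.95 in wild type. pals-25 had 1.94 and 4.97. pals-27 had 2.0 and 0.10. On FPKM plus 1 the log2 ratios were −0.92, −1.02 and 1.45, and with 0.1 added they were −1.09, −1.31 and 3.39. The same libraries in the nrde-3 table gave −0.93, −1.04 and 1.52 with 1 added.

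No member reached the 4-fold rule on FPKM plus 1, which 1.08% of 37081 genes met on the high side and 0.574% on the low side. With 0.1 added, pals-27 did, as did 3.67% of genes, and 1.25% met that rule on the low side. At 2-fold on FPKM plus 1, pals-27 was on the high side with 3.92% of genes and pals-25 on the low side with 5.31%. These shares are over all 37081 genes, of which 11651 had a mean of at least 1 FPKM, and genes near 0 cannot pass. Among genes above 0 FPKM in either library, with 0.1 added, 9.83% had a smaller log2 ratio than pals-25. For pals-22 that share was 14.4%, and for pals-27 it was 97.2%.

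On the food labelled drh-1 RNAi, the triple mutant had 4.71 FPKM of pals-22, 2.65 of pals-25 and 0.223 of pals-27. Wild type on it had 6.24, 3.35 and 0.112. The gap between the genotypes was smaller for all 3 genes than on control food, with log2 ratios of −0.34, −0.25 and 0.14. The high pals-27 level of the triple mutant on control, 2.0 FPKM, was thus not seen on this food. Some genes outside the family were also lower in the libraries labelled drh-1 RNAi than on control. In the triple mutant, rde-1 went from 24.8 to 3.44 FPKM and rrf-1 from 23.9 to 4.41. In wild type they went from 37.6 to 14.1 and from 31.7 to 7.15. Not all genes did so, as pnp-1 was higher in both genotypes. Whether the lower pals-27 level was particular to that gene was not tested.

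On nrde-3 RNAi, pals-22 had 6.44 FPKM in the triple mutant and 6.77 in wild type, pals-25 had 3.34 and 5.14, and pals-27 had 0.544 and 0.134. In that table the control libraries had 3.48 and 7.53 FPKM of pals-22, 2.11 and 5.39 of pals-25, and 2.17 and 0.108 of pals-27. pals-22 was near the wild-type level on this food, and pals-25 and pals-27 lay between the control libraries. Relative to its own control, the triple mutant library had log2 ratios of 0.73 for pals-22, 0.48 for pals-25 and −1.04 for pals-27, while wild type had −0.13, −0.06 and 0.03.

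**Figure D5:**
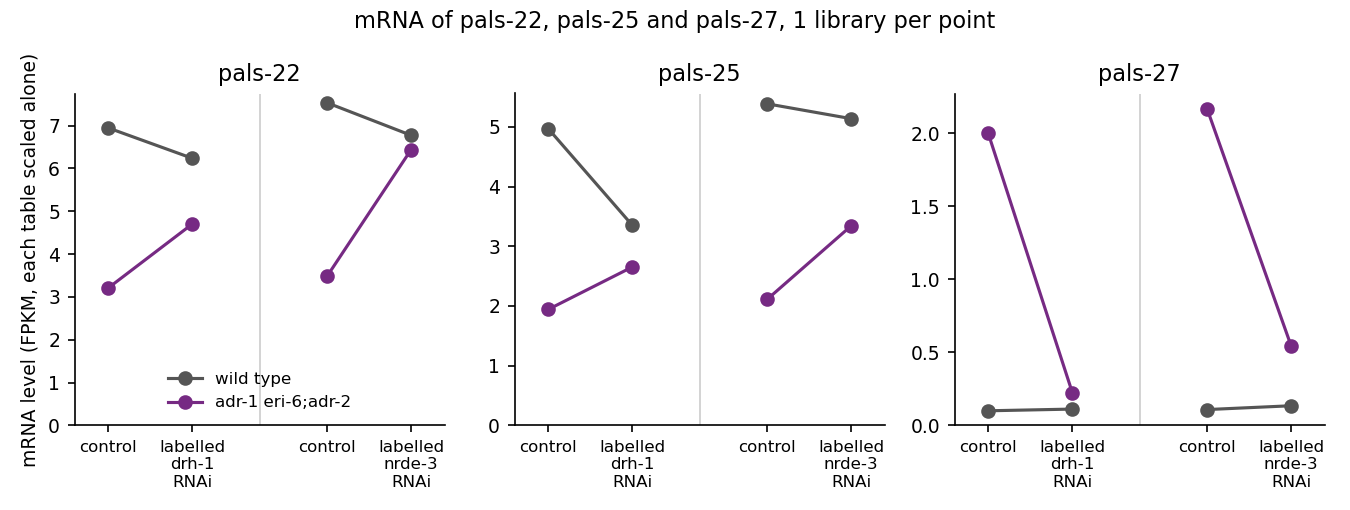
mRNA level in FPKM of pals-22, pals-25 and pals-27 in wild type (grey) and adr-1 eri-6;adr-2 (purple), 1 library per point, with the drh-1 table to the left of the line and the nrde-3 table to its right. The triple mutant on control stands low for pals-22 and pals-25 and high for pals-27, and it lies closer to wild type on both other foods.

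The triple mutant library on control, which these contrasts share, stood apart in other ways. Genes of at least 100 FPKM had a median log2 ratio of −0.54 against wild type on control, and the summed FPKM was 992840 against 1413758. The 8 intestine markers summed to 4816 FPKM against 8745 in wild type, and the 7 oocyte and embryo markers to 2557 against 1318. The 6 sperm markers summed to 25.9 against 3.78, with 1 marker at 0 in each, and the 5 epidermis and cuticle markers to 576 against 382, with 1 at 0 in wild type. Germline, muscle and neuron markers summed to 1697, 187 and 212 FPKM against 1386, 116 and 178. The intestine markers summed to 13969 FPKM in the triple mutant and 25925 in wild type in the libraries labelled drh-1 RNAi, and to 9866 and 11150 on nrde-3 RNAi. The part of composition in the pals values was not tested. Centred on the median of genes of at least 1 FPKM, the log2 ratios of the triple mutant on control were −0.81 for pals-22, −0.92 for pals-25 and 1.55 for pals-27.

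The within-library ratio of pals-25 to pals-22 mRNA, which needs no scaling, was 0.605 in the triple mutant and 0.715 in wild type on control. It was 0.564 and 0.537 on the food labelled drh-1 RNAi, and 0.519 and 0.759 on nrde-3 RNAi.

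pals-16 mRNA cannot be read from these tables. The gene has 2 entries under a merged locus (III:1372960-1409238) that 12 gene IDs share, and in the drh-1 table they gave 3.54 and 608 FPKM in wild type on control and 2.54 and 288 in the triple mutant. pals-21 was not analysed here in mRNA.

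Of the other pals genes, 28 were in the mRNA tables. On control food, pals-6 was past 4-fold in the triple mutant, at 4.45 FPKM against 0.201, and none was past it on the low side. With 0.1 FPKM added, pals-3, pals-14 and pals-32 were also past 4-fold, and these 3 are named after their values were seen. Over all 37081 genes, many of them near 0, 1.08% were that high on FPKM plus 1 and 3.67% with 0.1 added. pals-3 had 0.389 FPKM against 0, so its ratio rests on the amount added. pals-14 had 1.84 FPKM against 0.154, and pals-32 had 1.88 against 0.0555. In the triple mutant library labelled drh-1 RNAi, pals-6 had 0.865 FPKM, pals-14 0.174 and pals-32 0.496. As rde-1 and rrf-1 were also lower in that library than on control, these values are not read as particular to pals genes. The repressor pals-17 had 6.27 FPKM in the triple mutant and 8.21 in wild type on control, and 16.7 and 9.58 on nrde-3 RNAi. The activator pals-20 had 0.564 and 0.596 on control.

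Over the 13 other pals genes with at least 0.5 FPKM in either library, the median log2 ratio of triple mutant to wild type on control was −0.03, and over all genes of that level it was −0.04. For 11 pathogen response genes outside the family it was 0.65, with skr-5 past 4-fold at 8.23 FPKM against 1.27 while gst-33 had 1.26 against 6.02. On the food labelled drh-1 RNAi the medians, over genes of that level there, were 0.02 and 0.63, and skr-5 had 10.5 FPKM in the triple mutant against 1.49. On nrde-3 RNAi they were 0.44 and 0.72, and skr-5 had 17.1 against 1.60. On FPKM plus 1, skr-5 was thus at least 4-fold higher in the triple mutant on all 3 foods. It had the highest ratio of the list each time, with 1 library per condition. In total RNA its bounds overlapped, at 2.19 FPKM (0 to 4.76) in the triple mutant and 0.681 (0 to 1.87) in wild type.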

How the data were processed

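Samples were grouped by the genotype and RNAi food in their labels. The submitters' processing notes name BWA and featureCounts, TopHat2, Cufflinks and Cuffdiff, Trim Galore, DESeq2 and build WBcel235; no source used here gives versions, settings or strand handling, so sense and antisense small RNA cannot be told apart. The small RNA values are a normalised signal for each gene and library, as the authors deposited them. They were whole reads times 1 factor per library, within 0.01 read for 100% of values, so reads were recovered and scaled to RPM. For total RNA and mRNA the authors deposited FPKM, with bounds in total RNA; the depth of these libraries is unknown. Gene IDs with more than 1 entry, 321 and 344 entries, were left out. The triple mutant small RNA table holds genes the authors selected.

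The small RNA tables were fitted one at a time with limma 3.58.1 (trend, R 4.3.3) on log2(value + 1), keeping a mean of 10 or more, with Benjamini-Hochberg adjustment; the fit was tested on simulated data. edgeR 4.0.16 and DESeq2 1.42.0 were alternatives on recovered reads. Total RNA was called where bounds did not overlap and the larger value was at least 1 FPKM. mRNA was called at 4-fold on FPKM plus 1, with no test. Exact binomial intervals (95%) cover counting error only. Both small RNA tables hold the same wild-type libraries. From 25 names of pathogen response genes, 3 pals genes and 1 with conflicting names were dropped.

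Named were the members, pals-17 and pals-20, the nearest gene on each side and the 2 genes of most like small RNA profile. A limit of 5 was set for other pals genes and for pathogen response genes, each by size of fold. More of both are named here. The genes rde-1, rrf-1 and pnp-1 are named outside these rules. The members and lists were chosen with earlier results of these data known. Alternatives covered pseudocounts, filters, TMM scaling, a replicate block, leaving out each library, and fold and bounds rules. Gene positions come from RefSeq on WBcel235, and sequences were not used here.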

Additional observations from a re-analysis of the deposited data

Results flagged for a closer look

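For 3 members, 6 mRNA contrasts had log2 ratios of opposite sign in wild type and in the triple mutant. There was 1 library per condition, and these differences were not tested. Some wild-type ratios were too small to read as a change, as 0.02 and 0.03 for pals-27 and −0.06 for pals-25 on nrde-3 RNAi. On FPKM plus 1, the log2 ratio on the food labelled drh-1 RNAi to control was higher in the triple mutant than in wild type by 0.57 for pals-22 (0.44 and −0.13) and by 0.77 for pals-25 (0.31 and −0.46), and it was −1.31 relative to wild type for pals-27 (−1.29 and 0.02). On nrde-3 RNAi the difference was 0.87 for pals-22 (0.73 and −0.13), 0.54 for pals-25 (0.48 and −0.06) and −1.07 for pals-27 (−1.04 and 0.03). Each of the 6 uses the same pair of control libraries, 1 of the triple mutant and 1 of wild type. After median centring the wild-type value of pals-22 on the food labelled drh-1 RNAi was 0.05 and that of pals-25 on nrde-3 RNAi was 0.01, so in these 2 contrasts both genotypes had the same sign.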

How the results depend on the processing

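Limma calls in small RNA were 0 in both comparisons; adr-1;adr-2 gave 2 with a pseudocount of 5, 67 with a mean of at least 50 and 122 with DESeq2, and eri-6 gave 72, 33 and 138 with a mean of at least 50, TMM scaling and DESeq2. With 1 library left out they were 5 to 88 in adr-1;adr-2 and 46 to 99 in eri-6. With the replicate number as a block they were 0 in adr-1;adr-2 and 106 in eri-6; the labels do not state a pairing, and same-numbered libraries deviated together at correlations of 0.60 to 0.71. The 4-fold rule held for 166 genes in adr-1;adr-2 and 180 in eri-6, at 2-fold for 555 and 387, and with 1 library left out for 506 to 1723 and 284 to 1329. mRNA counts past 4-fold also rest on the setting, as given here with 0.1 FPKM added and at 2-fold. Triple mutant against wild type gave 614 genes, then 1823 and 3422, on control; 520, then 1500 and 1734, in the libraries labelled drh-1 RNAi; and 522, then 1447 and 1635, on nrde-3 RNAi. Against control, the food labelled drh-1 RNAi gave 280, then 787 and 1610, in wild type and 533, then 1414 and 2266, in the triple mutant. nrde-3 RNAi gave 317, then 831 and 675, in wild type and 379, then 1172 and 2434, in the triple mutant. Median centring, chosen after seeing the data, and the total RNA alternatives stayed within 1.5 times. The cause was not tested. Of 138 values of single members under alternatives other than leaving out a library, 130 moved by less than the spread between replicates or 1.5 times, and the 8 that moved were all pals-27 FPKM ratios with 0.1 added. The filters and the replicate block cannot change the limma log2 fold of a gene. Their values among the 130 were thus fixed in advance and say nothing of stability. Between 1 library left out and all other settings, the adr-1;adr-2 log2 fold of pals-22 ran from −0.72 (without wild-type replicate 1) to 0.87 (without wild-type replicate 2), that of pals-27 from 1.46 to 3.26 and that of pals-16 from 2.53 to 3.25; in eri-6 pals-22 ran from 0.90 to 2.42, pals-25 from 1.79 to 3.31 and pals-27 from 3.83 to 4.56. Small RNA replicates limit precision: with 2 libraries per genotype, SEs were 0.82 to 1.53.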
